A study of Mus musculus with 45 samples.

Results

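The genes described here encode subunits of eukaryotic translation initiation factor 3 (eIF3) in mouse kidney tubules. They are Eif3j1 and Eif3j2, a pair of genes for the eIF3j subunit with nearly identical coding regions, and Eif3a to Eif3h. These 10 genes, of 55401 in the count tables, were chosen because Eif3j2 was nearly lost in 1 of the genotypes, and all 10 are in the count and TPM tables of both sexes. The choice used the level of Eif3j2 in Pkd1KO+ciliaKO mice, so Eif3j2 is described but not tested in comparisons with that genotype. Tests of Eif3j1 in those comparisons are not free of this choice, since its level ran opposite to that of Eif3j2 over the mice.

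eIF3 is the largest of the initiation factors. It binds the small ribosomal subunit, holds the initiator tRNA and the mRNA in place while the start codon is sought, and takes part in termination and recycling. eIF3j is a loosely bound subunit that sits near the mRNA entry channel of the small subunit, and the other subunits form a core of scaffold proteins with peripheral modules. The genes are expressed in every cell type, so their levels in a tubule pulldown are not a mark of a cell type.

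The study asked which transcripts of kidney tubule cells change with loss of polycystin-1 and return towards the starting level when cilia are lost too. Translating ribosome affinity purification (TRAP) RNASeq was done on the kidneys of 45 mice in 6 groups at 7 weeks of age, and 1 library is 1 mouse. All mice carried the ribosome tag RosaEGFP-Rpl10a with the Pax8rtTA and TetOCre transgenes, which act in nephron epithelium, and received doxycycline from postnatal day 28 to 42 before harvest at day 49. Noncystic mice were Pkd1fl/+ (8 males and 7 females), so they too lost 1 copy of Pkd1. Pkd1KO mice were Pkd1fl/fl (7 males and 8 females). Pkd1KO+ciliaKO mice were Pkd1fl/fl and Kif3afl/fl (9 males and 6 females). The lines had been backcrossed for some generations to the inbred strain that also provides the reference genome, and were not described as fully congenic.

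Kif3a, the kinesin gene removed to ablate cilia, was at 4.90 to 7.45 CPM (counts scaled to library size) in the 9 male Pkd1KO+ciliaKO mice and at 13.8 to 29.2 CPM in the other males. In females 2 libraries went against their labels. The library labelled noncystic replicate 5 had 6.69 CPM of Kif3a, and the library labelled Pkd1KO+ciliaKO replicate 6 had 20.7 CPM. Some results that rest on them, among them the counts of called eIF3 genes, are given with and without them. Other female results, including those of single genes in the other initiation gene lists, are given with all mice only. Pkd1 cannot serve as such a check, since counts were taken over whole genes and the floxed exons are a small part of it. Its group medians lay between 36.6 and 54.0 CPM. Proximal tubule markers summed to 3780 to 9644 CPM over the 45 mice, podocyte markers to 3.71 to 19.4 CPM and endothelial markers to 28.6 to 180.5 CPM. The libraries held 80874556 to 132958186 counted fragments.

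Eif3j1 (ENSMUSG00000027236.8) lies on chromosome 2 from 122028546 to 122056598 on the plus strand, and Eif3j2 (ENSMUSG00000043424.10) on chromosome 18 from 43475418 to 43477796 on the minus strand (GRCm38). Eif3j1 is spread over 8 exons in its 5413-base transcript, whereas Eif3j2 is a single exon of 2379 bases. An alignment of both GENCODE transcripts matched the whole of Eif3j2 to bases 78 to 2446 of the Eif3j1 transcript, with 2365 identical bases. The 4 substitutions, counted from base 1 at the 5′ end of the Eif3j1 transcript and with the Eif3j1 base first, were G104A in the 5′ untranslated region and T1607G, A1618T and C2301T in the 3′ untranslated region. Eif3j2 had 6 extra bases at the start of its coding region and 4 in its 3′ untranslated region. The coding regions thus hold 261 codons in Eif3j1 and 263 in Eif3j2, and no substitution falls in them.

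Reads cannot always be assigned between such copies. Of the 2230 windows of 150 bases, the read length, in Eif3j2, 1719 (77.1%) are found unchanged in the Eif3j1 transcript, while of 5264 windows in the Eif3j1 transcript 32.7% are found in Eif3j2. Reads were sequenced in pairs, and these windows take each read alone. The shares for whole fragments were not computed. How reads matching both genes were treated is not given in the sources used here, and a read counted for either gene may stem from the other. The levels of Eif3j1 and Eif3j2 are therefore uncertain as measures of each gene, and their sum is given beside them. Eif3j1 is also overlapped on its own strand by Gm47314 and on the opposite strand by Spg11, and the strand setting of the counting is not given in the sources used here.

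The bases of the Eif3j1 transcript before base 78 have no match in the Eif3j2 transcript. The promoter of Eif3j1 is shown because it leads into these bases, and the sequence upstream of Eif3j2 was not compared with it. RefSeq (GRCm38.p6) gives it for chr2:122028330-122028575 on the plus strand, and capitals mark the first 30 bases of the GENCODE transcript, all before the point where the match with Eif3j2 begins.
Eif3j1: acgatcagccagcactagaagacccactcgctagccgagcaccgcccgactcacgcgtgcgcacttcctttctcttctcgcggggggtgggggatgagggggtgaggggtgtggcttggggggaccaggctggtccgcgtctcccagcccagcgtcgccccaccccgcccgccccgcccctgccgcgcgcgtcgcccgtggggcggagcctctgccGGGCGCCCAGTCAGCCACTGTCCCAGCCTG
The full 300-base promoter entry held 31 CG dinucleotides, a number reached by 10.6% of the 32851 promoters of that table, whose median was 7. Of the 14 eIF3 subunit genes, 10 had an entry in the table.

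Eif3j2 was nearly lost in Pkd1KO+ciliaKO mice of both sexes, which is what the genes were chosen for. In males its level was 10.3 to 19.98 CPM in the 8 noncystic mice (median 16.1), 7.32 to 18.3 CPM in the 7 Pkd1KO mice (median 10.8) and 1.499 to 2.13 CPM in the 9 Pkd1KO+ciliaKO mice (median 1.82). All male Pkd1KO+ciliaKO mice were below all other males, and the median of noncystic mice was 8.84 times theirs. The low values still stood on 154 to 230 counted fragments per mouse.

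In females the groups overlapped. Eif3j2 was at 2.15 to 18.9 CPM in the 7 noncystic mice (median 11.4), at 2.23 to 20.7 CPM in the 8 Pkd1KO mice (median 15.9) and at 1.52 to 14.2 CPM in the 6 Pkd1KO+ciliaKO mice (median 1.99). The 14.2 CPM were those of the library labelled Pkd1KO+ciliaKO replicate 6, and the other 5 female Pkd1KO+ciliaKO mice were at 1.52 to 2.22 CPM. Low values were also found outside that genotype. Noncystic replicate 4 had 2.15 CPM of Eif3j2 with 24.2 CPM of Kif3a, and Pkd1KO replicate 8 had 2.23 CPM with 27.5 CPM of Kif3a. The library labelled noncystic replicate 5, with little Kif3a, had 2.32 CPM. A low level of Eif3j2 was thus seen in 2 female mice whose Kif3a was at the level of cilia-bearing mice.

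**Figure D1:**
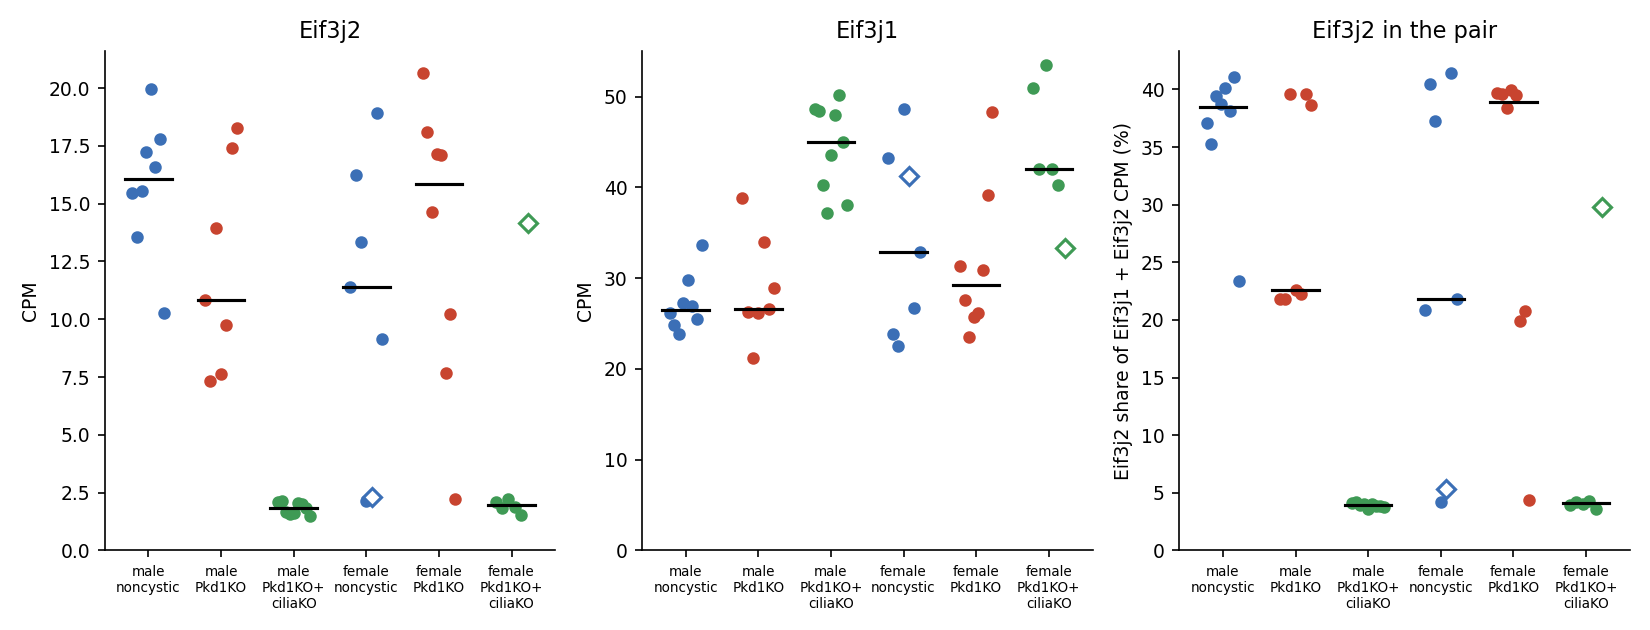
CPM of Eif3j2 (left) and of Eif3j1 (middle), and the share of Eif3j2 in the summed CPM of both in percent (right), for each of 45 mice by group. Points are mice, black lines are group medians, and open diamonds are the 2 female libraries whose Kif3a went against the label. The 9 male Pkd1KO+ciliaKO mice have 3.60% to 4.22% of Eif3j2 in the pair.

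Across mice the share of Eif3j2 in the CPM of the pair fell into 3 ranges with gaps between them. In 17 mice it was 3.60% to 5.33%, in 9 mice 19.9% to 23.4%, and in 19 mice 29.8% to 41.5%. The lowest range held all 9 male Pkd1KO+ciliaKO mice, 5 of 6 female Pkd1KO+ciliaKO mice, 2 female noncystic mice and 1 female Pkd1KO mouse, and no male of another genotype. The middle range held 4 male Pkd1KO mice, 2 female Pkd1KO mice, 2 female noncystic mice and 1 male noncystic mouse. The highest held 7 noncystic males, 3 noncystic females, 3 Pkd1KO males, 5 Pkd1KO females and the library labelled female Pkd1KO+ciliaKO replicate 6, which at 29.8% was the lowest of them. Genotype groups other than male Pkd1KO+ciliaKO therefore mixed mice of different ranges.

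Between the ranges of the share, Eif3j1 was high where Eif3j2 was low. Its level was 37.2 to 53.4 CPM in the mice of the lowest range of the share, 26.1 to 43.3 CPM in those of the middle range and 21.2 to 33.3 CPM in those of the highest. The sum of both genes was 38.8 to 55.7 CPM, 33.5 to 54.7 CPM and 35.1 to 52.0 CPM in the same order, so the sum overlapped almost fully. Over all 45 mice Pearson's r between Eif3j1 and Eif3j2 on the log2(CPM + 0.1) scale was -0.83. Inside the lowest, middle and highest range r was positive, at 0.77, 0.93 and 0.56. The share is computed from both genes. The order of Eif3j1 over its ranges, and r within them, thus follow in part from how they are defined. The correlations are descriptions, and both genes share library and depth.

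**Figure D2:**
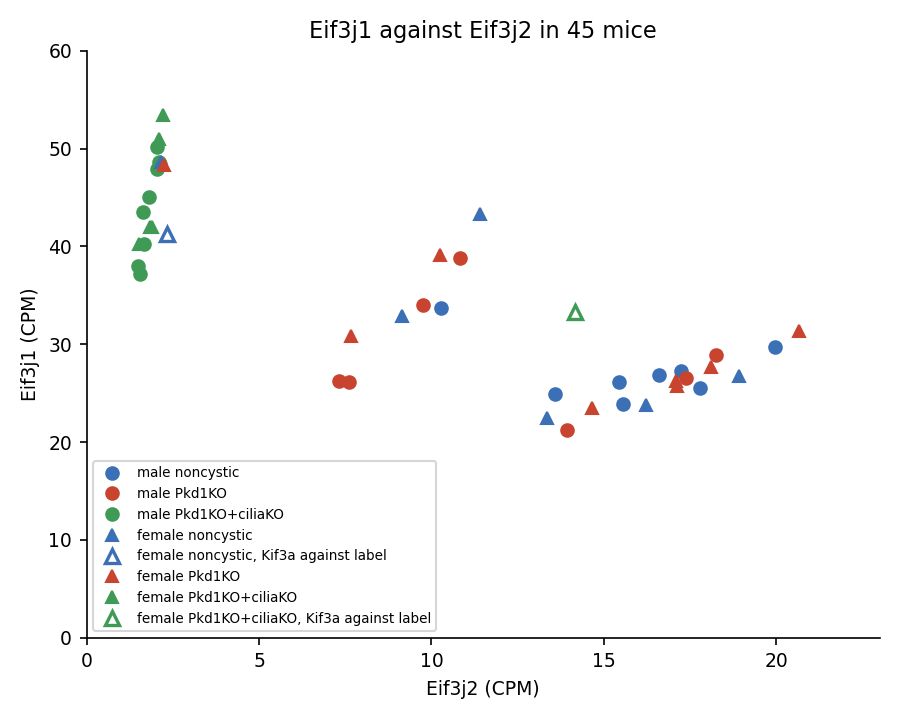
Eif3j1 against Eif3j2 in CPM, 1 point per mouse, with circles for males, triangles for females, colours for genotype and open symbols for the 2 libraries whose Kif3a went against the label. The mice form 3 bands, with Eif3j2 at 1.499 to 2.32 CPM, 7.32 to 11.4 CPM and 13.4 to 20.7 CPM. Eif3j1 is at 37.2 to 53.4 CPM, 26.1 to 43.3 CPM and 21.2 to 33.3 CPM in them, and the bands are those of the Eif3j2 share, which is made from the values on both axes.

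The sum of the pair differed little between groups. In males its median was 43.4 CPM in noncystic mice, 43.8 CPM in Pkd1KO mice and 46.8 CPM in Pkd1KO+ciliaKO mice, the last 1.08 times the first. In females the medians were 43.6, 44.5 and 45.7 CPM in the same order, the last 1.048 times the first. The ranges of all 6 groups overlapped, from 33.5 to 55.7 CPM over all mice. By contrast Eif3j2 made up a median of 38.5% of the sum in male noncystic mice and 3.98% in male Pkd1KO+ciliaKO mice. As in any bulk pulldown, fewer cells of a type and less RNA per cell cannot be told apart.

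Eif3j1 was the only one of the 10 genes called in a comparison of genotypes in the quasi-likelihood test of edgeR (Benjamini-Hochberg adjusted p of at most 0.05), and the calls were in males. Its level was 23.9 to 33.7 CPM in the 8 noncystic males (median 26.5), 21.2 to 38.8 CPM in the 7 Pkd1KO males (median 26.6) and 37.2 to 50.1 CPM in the 9 Pkd1KO+ciliaKO males (median 45.03). The Pkd1KO+ciliaKO males were all above the noncystic males, and 1 Pkd1KO male reached into their range. Compared with noncystic males, Eif3j1 was higher in Pkd1KO+ciliaKO males by a log2 fold change of 0.70 ± 0.08 (SE; adjusted p = 1.87e-05), and compared with Pkd1KO+ciliaKO males it was lower in Pkd1KO males by -0.62 ± 0.11 (adjusted p = 0.00311). How far reads of one gene were counted for the other was not tested, so the levels of Eif3j1 and Eif3j2 may not be independent. Over the 45 mice r between the pair was -0.83. The choice of genes rested on low Eif3j2 in Pkd1KO+ciliaKO mice, so these calls of Eif3j1 do not stand apart from it. Spg11, which overlaps Eif3j1 on the other strand, was also higher in Pkd1KO+ciliaKO than in noncystic males (0.60 ± 0.14, adjusted p = 0.0130), and its part in the result was not tested.

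The summed markers of some other cell types did not overlap between these groups of males. Of 9 marker lists, the sums of 8 overlapped between Pkd1KO+ciliaKO and noncystic males, and those of the mast cell markers did not, at 0.356 to 1.42 CPM against 0.0961 to 0.228 CPM. That gap lay in Ms4a2, at 0.324 to 1.42 CPM against 0.0703 to 0.228 CPM. Cpa3, the other mast cell gene listed, overlapped, at 0 to 0.0481 CPM and 0 to 0.0586 CPM. Between Pkd1KO and Pkd1KO+ciliaKO males those of the macrophage markers alone did not overlap, at 86.2 to 133.02 CPM and 40.7 to 82.8 CPM. Here the gap lay in Csf1r, at 84.8 to 113 CPM and 37.9 to 78.6 CPM. Adgre1, the other macrophage gene listed, overlapped, at 1.38 to 19.7 CPM and 1.45 to 4.21 CPM. The proximal tubule markers had medians of 8684 CPM in noncystic, 6646 CPM in Pkd1KO and 5952 CPM in Pkd1KO+ciliaKO males, with overlapping ranges. In females the sums of all 9 lists overlapped in each comparison. The part of these cells in the levels of Eif3j1 was not tested.

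Of the 9 genes tested without Eif3j2, this made 1 called higher in Pkd1KO+ciliaKO against noncystic males, where 8.89% of all tested genes were called, and 1 called lower in Pkd1KO against Pkd1KO+ciliaKO males, where 3.77% were. A single call among 9 genes is little to set against these backgrounds. The gene called, Eif3j1, ran opposite to Eif3j2, on which the choice rested. In Pkd1KO against noncystic males, where 6.3% of all genes were called, edgeR called none of the 10, and 0 had an unadjusted p under 0.05. There Eif3j1 had a log2 fold change of 0.08 (95% interval -0.16 to 0.31) and Eif3j2 one of -0.38 (-0.79 to 0.03, adjusted p = 0.269). DESeq2 also called none of them there.

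In females Eif3j1 was at 22.5 to 48.6 CPM in noncystic mice (median 32.9), at 23.5 to 48.3 CPM in Pkd1KO mice (median 29.3) and at 33.3 to 53.4 CPM in Pkd1KO+ciliaKO mice (median 42.0). All groups overlapped. The log2 fold change of Pkd1KO against Pkd1KO+ciliaKO females was -0.47 ± 0.15 (edgeR adjusted p = 0.0551), and without the 2 libraries whose Kif3a went against the label it was -0.53 ± 0.15 (adjusted p = 0.0380). Pkd1KO+ciliaKO against noncystic females gave 0.35 ± 0.18 (adjusted p = 0.266) with all mice and 0.47 ± 0.19 (adjusted p = 0.155) without these libraries. Pkd1KO against noncystic females gave -0.11 ± 0.18 (adjusted p = 0.842), and Eif3j2 gave 0.36 there (95% interval -0.60 to 1.32).

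No eIF3 gene of the 10 was called by edgeR in any of the female comparisons, against backgrounds of 3.34% for Pkd1KO against noncystic, 11.7% for Pkd1KO against Pkd1KO+ciliaKO and 2.54% for Pkd1KO+ciliaKO against noncystic. The numbers with an unadjusted p under 0.05 were 0 of 10, 1 of 9 and 2 of 9. DESeq2 called 0, 1 (Eif3j1) and 0. Without the 2 libraries edgeR called 0, 1 (Eif3j1) and 0, with backgrounds of 3.49%, 10.4% and 5.8%. The difference between the sexes was itself tested over all 45 mice. For Eif3j1 the change from noncystic to Pkd1KO+ciliaKO was 0.35 ± 0.21 larger in males than in females (log2, adjusted p = 0.983), and none of the members was called in any of the 3 tests of a sex difference, where 0.0126% (Pkd1KO against noncystic), 0.0316% (Pkd1KO+ciliaKO against noncystic) and 0.221% (Pkd1KO against Pkd1KO+ciliaKO) of all genes were. No member had an unadjusted p under 0.05 in them (0 in each), and DESeq2 called 0. Without the 2 libraries the count was 0 in each as well, with backgrounds of 0.00632%, 0.0126% and 0.221%.

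**Figure D3:**
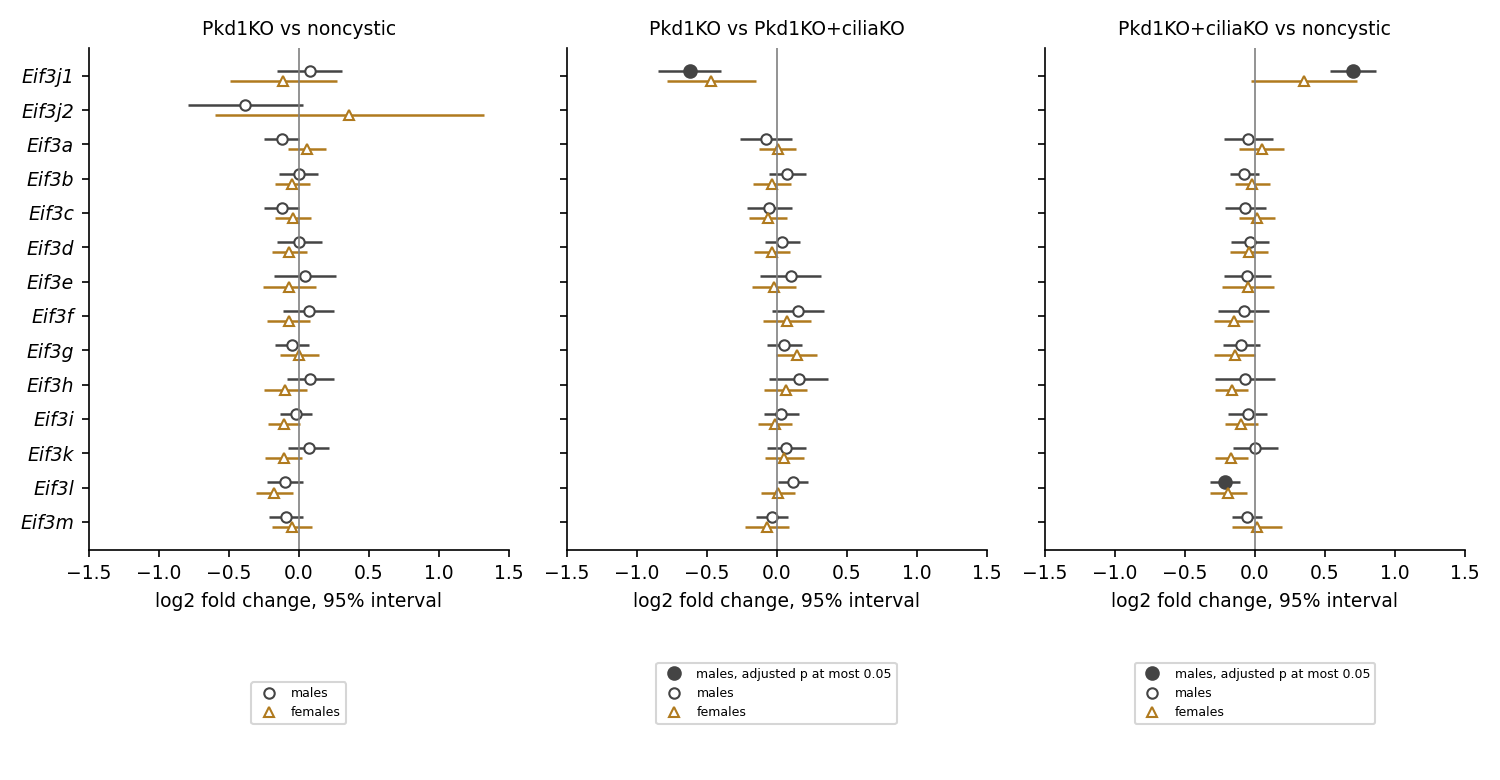
Log2 fold change with its 95% interval for each eIF3 subunit gene in the 3 genotype comparisons, for males (circles) and females (triangles), with filled symbols for an edgeR adjusted p of at most 0.05. Only Eif3j1 and Eif3l in males are filled, and Eif3j2 is not drawn where Pkd1KO+ciliaKO mice enter because the genes were chosen on it.

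For the remaining members no difference between genotypes was detected. Over Eif3a to Eif3h and the 6 pairwise comparisons, the 48 log2 fold changes lay between -0.16 and 0.16, and the widest 95% bounds were -0.29 and 0.37. None was called, 2 had an unadjusted p under 0.05, and the smallest adjusted p was 0.109. The spread of log2(CPM) between mice of a group was 0.11 to 0.19 (SD) for these 8 genes, against 0.29 for Eif3j1 and 0.85 for Eif3j2. Over all 45 mice the highest level was 1.496 to 1.85 times the lowest for each of the 8, 2.52 times for Eif3j1 and 13.8 times for Eif3j2.

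Eif3a and Eif3c encode the scaffold subunits on which the others assemble. Eif3a was at 240.0 to 303 CPM in noncystic males, 227 to 269.5 CPM in Pkd1KO males and 226 to 342 CPM in Pkd1KO+ciliaKO males, and Eif3c at 256 to 306, 246 to 287 and 246 to 352 CPM. The groups overlapped throughout. In Pkd1KO against noncystic males both had a log2 fold change of -0.12 ± 0.06, with adjusted p values of 0.245 and 0.247.

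Eif3b and Eif3g encode subunits with RNA recognition motifs, and eIF3b contacts eIF3j. Eif3b was at 183 to 279 CPM over all mice, with log2 fold changes from -0.07 to 0.08. Eif3g was at 63.0 to 98.9 CPM, and its values in female Pkd1KO+ciliaKO mice (69.3 to 89.5 CPM, median 74.3) overlapped those of female noncystic mice (74.3 to 97.4 CPM, median 82.5). The log2 fold change between them was -0.14 ± 0.07 (adjusted p = 0.251).

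Eif3d, whose product can bind the cap of certain mRNAs, was at 38.5 to 61.1 CPM, and Eif3e, a subunit with a PCI domain, was at 62.2 to 112 CPM. Their log2 fold changes ranged from -0.07 to 0.10. Eif3f and Eif3h encode the MPN domain subunits. Eif3h had the smallest p of the 8 genes in a pairwise comparison, with 136 to 155 CPM in female Pkd1KO+ciliaKO mice and 146 to 179 CPM in female noncystic mice. These ranges overlapped, and the log2 fold change was -0.16 ± 0.06 (adjusted p = 0.109).

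Between the sexes Eif3f was the only member called. In noncystic mice its level was 112 to 159 CPM in males (median 128) and 141 to 171 CPM in females (median 152), and the sexes overlapped. It was lower in males by a log2 fold change of -0.25 ± 0.08 (edgeR adjusted p = 0.0225). This is 1 of 10 genes where 27.5% of all genes were called. Without the library labelled noncystic replicate 5 it was again the 1 called, against 24.2% of all genes. Eif3j1 gave -0.31 ± 0.15 (adjusted p = 0.140) and Eif3j2 0.61 ± 0.36 (adjusted p = 0.231) in the same test, which holds the 2 noncystic females of the lowest range of the Eif3j2 share.

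Levels of different genes were compared as TPM, which is scaled by gene length and was normalised separately in each sex. In noncystic males Eif3h was highest (median 299.8 TPM), followed by Eif3c (233 TPM) and Eif3b (203 TPM), and the ranges of neighbours in this order overlapped. Eif3f, Eif3g and Eif3a had medians of 134, 115 and 87.7 TPM. The mice's values of Eif3e (median 38.8 TPM) and Eif3d (30.3 TPM) lay below all of these, and those of Eif3j2 (20.5 TPM) and Eif3j1 (13.8 TPM) were lower still and overlapped each other. The order in noncystic females was the same for the 8 genes, from Eif3h at 336 TPM to Eif3d at 30.2 TPM, but Eif3j1 (19.0 TPM) was then above Eif3j2 (16.2 TPM). In Pkd1KO+ciliaKO males Eif3j1 had a median of 25.3 TPM and Eif3j2 one of 2.69 TPM. The median of Eif3j2 there was thus below that of every other subunit, and in all 6 groups the medians of both genes of the pair were below those of Eif3a to Eif3h.

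**Figure D4:**
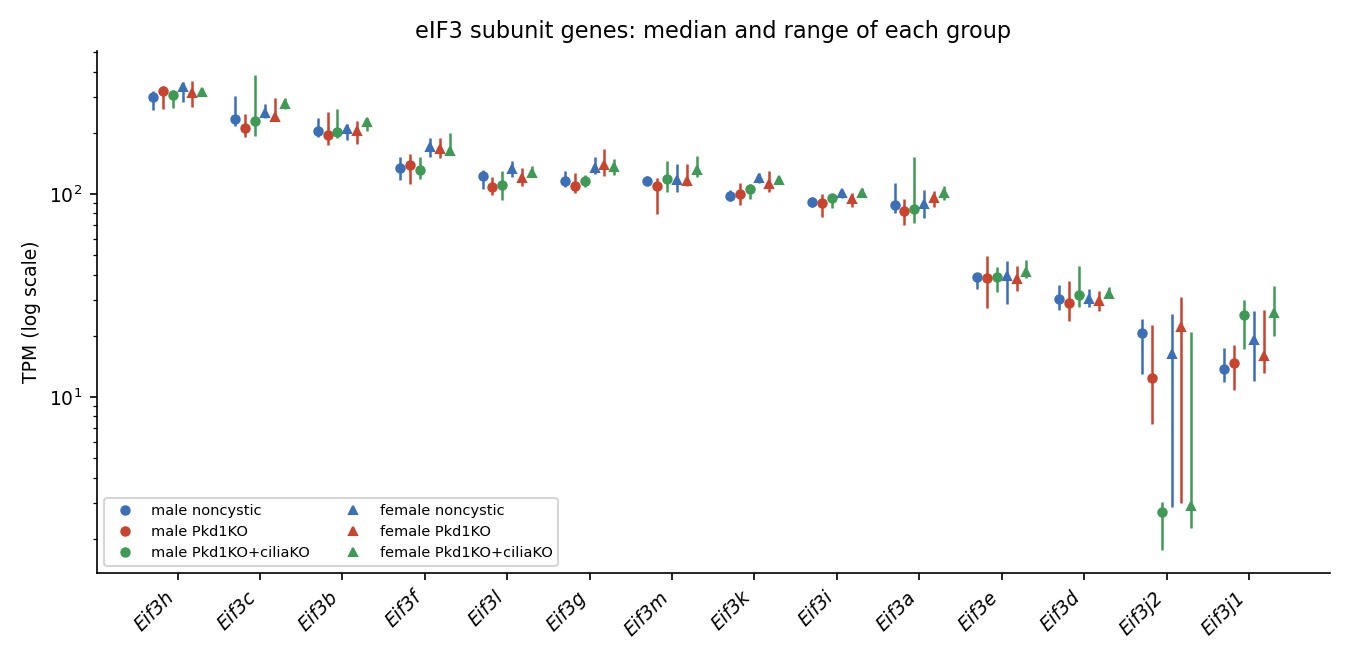
TPM (log scale) of 14 eIF3 subunit genes, ordered by their level in noncystic mice, with the median (symbol) and range (line) of each group, circles for males and triangles for females. Within a sex the ranges of the 3 genotypes overlap for each gene except Eif3j2 in males, which has a median of 2.69 TPM in Pkd1KO+ciliaKO males.

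Of the other 4 subunit genes, Eif3l was the only one called, at 123 to 133.2 CPM in Pkd1KO+ciliaKO males against 129 to 164 CPM in noncystic males. Its log2 fold change was -0.21 ± 0.05 (adjusted p = 0.0159) where 8.89% of all genes were called. In females the same comparison gave -0.19 ± 0.06 (adjusted p = 0.0980). Eif3i, Eif3k and Eif3m passed the test in none of the 6 pairwise comparisons by edgeR or DESeq2 (0 of 18 values), and 1 value had an unadjusted p under 0.05.

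In the other initiation gene lists, at most 1 gene per list passed the test in a comparison of genotypes. Of 6 scanning and subunit joining factors, 1 was called higher in Pkd1KO against noncystic females (3.34% of all genes called), Eif1a (0.24 ± 0.05, adjusted p = 0.0205), and 1 in Pkd1KO against Pkd1KO+ciliaKO females (11.7%), Eif1b (0.23 ± 0.07, adjusted p = 0.0324), and none in males. The list medians were 0.08 and 0.07, against medians near 0 for all genes (-0.00083 and -0.01). Of 8 genes of eIF2, which carries the initiator tRNA, and of its exchange factor, only Eif2b4 was called between genotypes, lower in Pkd1KO against noncystic males (-0.19 ± 0.05, adjusted p = 0.0361), where 6.3% of all genes were called.

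Of 13 genes of the cap binding complex and its regulators, Eif4a2, a helicase gene, was lower in Pkd1KO than in Pkd1KO+ciliaKO males (-0.29 ± 0.08, adjusted p = 0.0479), Eif4g3, a scaffold gene, was lower in Pkd1KO+ciliaKO than in noncystic males (-0.25 ± 0.07, adjusted p = 0.0351), and Eif4e2, a cap binding protein gene, was higher in Pkd1KO than in Pkd1KO+ciliaKO females (0.20 ± 0.06, adjusted p = 0.0419). Among 8 termination, recycling and reinitiation genes Eif6, whose product keeps the ribosomal subunits apart, was higher in Pkd1KO than in Pkd1KO+ciliaKO males (0.22 ± 0.06, adjusted p = 0.0463) and lower in Pkd1KO+ciliaKO than in noncystic males (-0.19 ± 0.05, adjusted p = 0.0303). These comparisons share their Pkd1KO+ciliaKO mice. The shares of all genes called were 3.77% in Pkd1KO against Pkd1KO+ciliaKO males, 8.89% in Pkd1KO+ciliaKO against noncystic males and 11.7% in Pkd1KO against Pkd1KO+ciliaKO females. The largest of these changes in size, that of Eif4a2, was smaller than that of Eif3j1 in the same comparison.

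Of the 5 genes whose levels were most like that of Eif3j2, 3 lay near Eif3j1 on chromosome 2 and none near Eif3j2. Over 45 mice and 15828 genes, the 5 highest Pearson correlations with Eif3j2 were those of Ganc (r = 0.95), Exd1 (0.90), Slc5a2 (0.88), Kif3a (0.87) and Itpka (0.86). Exd1 and Itpka were low in level, with group medians of 0.71 to 3.10 CPM and 0.43 to 1.52 CPM. Ganc, Exd1 and Itpka are on chromosome 2 and start 1.62, 2.51 and 2.29 Mb before Eif3j1, whereas Slc5a2 is on chromosome 7, Kif3a on chromosome 11, and none of them is on chromosome 18 with Eif3j2. The 3 genes most like Eif3j1 were Sqor (0.88), Ccdc32 (0.86) and Mfap1b (0.83), all on chromosome 2, 0.74 Mb after and 3.01 and 0.57 Mb before it. These values are descriptions over mice that fall into 3 ranges of Eif3j2, and within these ranges r between Ganc and Eif3j2 was 0.34, 0.38 and 0.03.

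Taken as deviations from the group means, Ganc (0.88), Exd1 (0.87) and Itpka (0.80) stayed close to Eif3j2, while Slc5a2 (0.58) and Kif3a (0.58) did so less. In males alone r was 0.96 for Slc5a2, 0.95 for Ganc, 0.95 for Kif3a, 0.90 for Exd1 and 0.85 for Itpka. In females it was 0.78, 0.96, 0.79, 0.90 and 0.93 in the same order. Ganc, an alpha-glucosidase gene, was at 62.0 to 90.9 CPM in noncystic males, 54.2 to 81.6 CPM in Pkd1KO males and 35.9 to 48.0 CPM in Pkd1KO+ciliaKO males. The Pkd1KO+ciliaKO males were below all others. The female mice with little Eif3j2 outside that genotype also had little Ganc, with 45.8 CPM in noncystic replicate 4, 43.6 CPM in the library labelled noncystic replicate 5 and 50.7 CPM in Pkd1KO replicate 8, and the library labelled Pkd1KO+ciliaKO replicate 6 had 75.6 CPM.

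**Figure D5:**
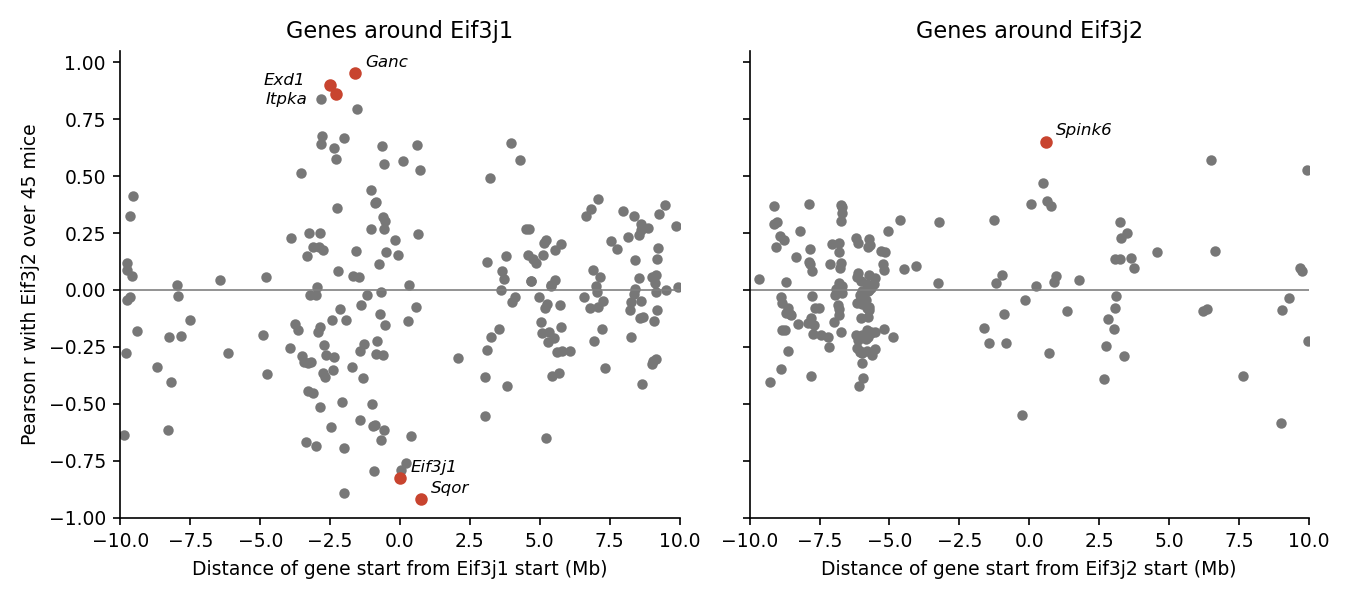
Pearson r with Eif3j2 over 45 mice (vertical) for genes by the distance of their start in Mb from the start of Eif3j1 (left) and of Eif3j2 (right). Among the neighbours within 2 Mb, r runs from -0.92 to 0.95 around Eif3j1 and from -0.55 to 0.65 around Eif3j2.

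Within 2 Mb of Eif3j1, r with Eif3j2 ran from -0.92 (Sqor) to 0.95 (Ganc) over 51 genes, and for 6 of them it was beyond 0.7 in size. Within 2 Mb of Eif3j2 itself it ran from -0.55 to 0.65 over 20 genes, and for none was it beyond 0.7. Leaving out the pair, there were 73 such genes among all 15826. Of these, 11 were among the 1241 genes of chromosome 2, 10 of them within 5 Mb of Eif3j1. Another 2 were among the 422 genes of chromosome 18, so most were on other chromosomes. Neighbouring genes share library and depth with the pair, and these counts are given without a test.

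The share of neighbours of Eif3j1 that were called differed between comparisons. In Pkd1KO+ciliaKO against noncystic males 15 of 51 were called (29.4%, against 8.89% of all genes), 11 higher and 4 lower, led by Ganc (-1.054 ± 0.07, adjusted p = 3.64e-08), Sqor (0.90 ± 0.08, adjusted p = 6.69e-07) and Zfp106 (-0.37 ± 0.06, adjusted p = 0.00150). Sqor encodes a mitochondrial sulfide oxidase. In Pkd1KO against Pkd1KO+ciliaKO mice 6 of 51 were called in males (11.8%, against 3.77% of all genes) and 9 in females (17.6%, against 11.7%). In Pkd1KO+ciliaKO against noncystic females edgeR called 0 of 51 (against 2.54% of all genes), with 12 at an unadjusted p under 0.05. DESeq2 called 3 there, with 1280 calls over all genes. Without the 2 libraries edgeR called 2, against 5.8% of all genes. In Pkd1KO against noncystic mice 3 were called in each sex (5.88%, against 6.3% of all genes in males and 3.34% in females). Tmem62, Gatm and Ganc were lower in males. Shf was lower and B2m and Tmem87a were higher in females, where 1 was called without the 2 libraries, against 3.49% of all genes.

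Of the 20 neighbours of Eif3j2, 2 were called in Pkd1KO+ciliaKO against noncystic males (10%, near the 8.89% of all genes), Spink6 lower and Stk32a higher (0.45 ± 0.10, adjusted p = 0.0101). In Pkd1KO against Pkd1KO+ciliaKO mice 2 were called in males (10%, against 3.77%), Spink6 higher and Ppp2r2b lower, and 3 in females (15%, against 11.7%), Spink6 and Npy6r higher and Stk32a lower. Pkd1KO+ciliaKO against noncystic females had 1 call, Spink6 lower (5%, against 2.54%). Pkd1KO against noncystic mice had 1 in males, Kcnn2 lower (5%, against 6.3%), and 0 in females by edgeR (against 3.34%). In those females 3 had an unadjusted p under 0.05, and DESeq2 called 1, with 962 calls over all genes. Spink6, a protease inhibitor gene that starts 0.596 Mb after Eif3j2, was present or absent by mouse. It had 0 to 2 counts in the 9 male Pkd1KO+ciliaKO mice and 0 to 5 in the 6 female ones, but also 0 or 1 count in 3 of 8 male noncystic, 2 of 7 male Pkd1KO, 2 of 7 female noncystic and 1 of 8 female Pkd1KO mice, and 340 to 3290 counts in the others. Mice without Spink6 and mice with little Eif3j2 were not the same in all cases. Pkd1KO female replicate 8 had 3290 counts of Spink6 at 2.23 CPM of Eif3j2, whereas male noncystic replicates 3 and 4 had 1 count of it at 15.5 and 17.2 CPM. In the library labelled Pkd1KO+ciliaKO female replicate 6, Spink6 had 0 counts and Eif3j2 14.2 CPM.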

How the data were processed

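Members and lists were chosen with earlier results of these data known. Per the labels, reads were trimmed with fastp 0.20.0, aligned to GRCm38.p6 with STAR 2.7.9 and counted with featureCounts 2.0.0. The authors deposited unnormalised counts per gene and mouse and, for each sex, TPM values of the protein-coding genes that reached 6 counts in 20% or more of its mice.

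Counts of the genes of each TPM table (15991 in males, 15968 in females) were fitted with edgeR 4.0.16 in R 4.3.3 for each pair of genotypes within a sex, with TMM normalisation, the quasi-likelihood test and Benjamini-Hochberg adjustment over all of them. CPM was scaled by TMM over the 15828 genes tested in both sexes, the genes of the sex difference (interaction) and of the noncystic sex comparison. An SE is the fold change divided by the square root of the F statistic. DESeq2 1.42.0 and limma 3.58.1 were alternatives. The fits were tested on simulated data. No sample was imputed, and no 2 libraries of the same group were duplicates. Libraries of different groups were not compared for this.

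The genes named are all eIF3 subunit genes, Kif3a and Pkd1, and the genes of the pathway lists called between genotypes. The limit set for a list was 2 called genes, and the cap binding list went past it. At most 3 called genes per comparison starting within 2 Mb of Eif3j1 or Eif3j2 are named. The 5 genes most like Eif3j2 and the 3 most like Eif3j1 are named too. Chp1, from an alternative measure of likeness, and the genes of the mast cell and macrophage lists were added. Coordinates are the extents of the exons given in the count tables, and overlapping genes and transcript sequences are those of an earlier GENCODE release on the same genome. Spink6 in single mice, Spg11 and the genes for single mice of the Eif3j2 ranges were looked at after their values were seen. Nothing says that mice of a group came from separate litters, and counts carry no molecular identifiers.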

Additional observations from a re-analysis of the deposited data

Results flagged for a closer look

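Within each of the 6 groups, the CPM of each of the 10 genes was examined for 1 mouse standing apart from the others by the gap test of Dixon at its 95% level. Of 60 sets of values, 5 had such a mouse, and chance alone gives about 1 in 20 sets. The sets include Eif3j2 in Pkd1KO+ciliaKO mice, whose level the genes were chosen on, so its flag is a description only. The library labelled female Pkd1KO+ciliaKO replicate 6 had 14.2 CPM of Eif3j2, where the next mouse of its group had 2.22 CPM. It is 1 of the 2 libraries whose Kif3a went against the label. Eif3c was at 352 CPM in male Pkd1KO+ciliaKO replicate 8 (next 297 CPM) and at 315 CPM in female Pkd1KO+ciliaKO replicate 1 (next 273 CPM). Eif3d was at 61.0 CPM in male Pkd1KO replicate 3 (next 53.0 CPM) and at 52.4 CPM in female Pkd1KO+ciliaKO replicate 1 (next 44.5 CPM).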

How the results depend on the processing

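The counts of called members stood at their reported values except in 3 comparisons. In Pkd1KO against Pkd1KO+ciliaKO females, where edgeR called 0 of 9, DESeq2, limma on log2(TPM + 1), the fit without the 2 libraries whose Kif3a went against the label and the replicate block called 1 each (Eif3j1), and limma voom with quality weights called 1 (Eif3g, 0.18, adjusted p = 0.0425). Leaving out 1 mouse gave 0 to 1 there. Eif3j1 was called without Pkd1KO replicate 7 (-0.53, adjusted p = 0.0427), Pkd1KO replicate 8 (-0.58, adjusted p = 0.0107) or the library labelled Pkd1KO+ciliaKO replicate 6 (-0.53, adjusted p = 0.0380), and its adjusted p ranged from 0.0107 to 0.121 over the mice left out. In Pkd1KO+ciliaKO against noncystic females voom called 1 (Eif3h, -0.18, adjusted p = 0.0347) against 0, and between noncystic males and females DESeq2 called 2 (Eif3b and Eif3f) against 1. The cause was not tested. In males Eif3j1 was called in all 9 other settings and in all 16 and 17 fits with 1 mouse left out, with log2 fold changes of -0.72 to -0.56 in Pkd1KO against Pkd1KO+ciliaKO and 0.67 to 0.75 in Pkd1KO+ciliaKO against noncystic mice. Of 1459 values called in neither setting, 81 changed sign.

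The replicate numbers were not taken as pairs of mice. The deviations of same-numbered mice from their group means correlated across genes at -0.36 to 0.47, which does not settle whether some of these mice shared a litter. With the replicate block the log2 fold change of Eif3j1 in Pkd1KO against Pkd1KO+ciliaKO females was -0.65 (adjusted p = 0.0202), and the block changed the count of called members in no other comparison.

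The backgrounds over all genes moved more. In males, Pkd1KO against noncystic had 1008 calls, 1640 by DESeq2 and 625 by limma on TPM. Pkd1KO against Pkd1KO+ciliaKO had 603, 1234 by DESeq2, 929 with 3 genotypes in one fit, 1389 by voom and 178 with the block. Pkd1KO+ciliaKO against noncystic had 1422, 2157 by DESeq2, 2803 by voom, 765 with the block and 2359 without noncystic replicate 3. In females, Pkd1KO against noncystic had 533, 962 by DESeq2, 809 by voom, 298 with the block and 349 without noncystic replicate 6. Pkd1KO against Pkd1KO+ciliaKO had 1869, 625 with the block and 1241 without Pkd1KO+ciliaKO replicate 3. Pkd1KO+ciliaKO against noncystic had 405, 1280 by DESeq2, 1357 by voom, 1000 by limma on TPM, 926 without the 2 libraries and 74 with the block. Without noncystic replicates 2, 3, 5, 6 or 7 it had 86, 101, 746, 89 and 104, and without Pkd1KO+ciliaKO replicates 2, 3 or 4 it had 8, 8 and 13. The sex differences had 2, 5 and 35 calls, against 29, 21 and 72 by DESeq2.

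The gene most like Eif3j2 was Ganc by Spearman's correlation too (0.87), on log2(CPM + 1) and, in alternatives chosen after seeing the data, for deviations from group means and without the 2 libraries. The others of the 5 moved by Spearman's correlation, Exd1 to rank 3, Itpka to 10, Kif3a to 16 and Slc5a2 to 38. On log2(CPM + 1) Itpka was at rank 9. The gene most like Eif3j1 was Ccdc32 by Spearman's correlation (0.86) and Chp1 (0.79) for deviations from group means. Eif3j2 had at least 154 counts in every mouse.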
